A study of Mus musculus with 114 samples.

Results

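The RNAs described here are 10 long noncoding RNAs that are known mostly from the nucleus or from nuclear processing: Malat1, Neat1 and Miat, the imprinted RNAs Meg3, Rian, Mirg and Kcnq1ot1, the small nucleolar RNA hosts Snhg11 and Gas5, and Pvt1. They were chosen by name, and all 10 had a row among the 13101 genes of the deposited count table. RNA was pulled down with tagged ribosomes from mouse prefrontal cortex, a method in which a haemagglutinin tag on a ribosomal protein marks the ribosomes of a chosen cell type, and was sequenced at 6 times of day. The times are ZT2, ZT6, ZT10, ZT14, ZT18 and ZT22, in hours of zeitgeber time (ZT), which counts from lights on. All mice are labelled Ribo-tag mice, with no age, strain or driver line in the labels. The study names parvalbumin (PV) interneurons and pyramidal cells as the cells compared. In each library the prefix of the title points to one of these cell types and the label for cell type to the other, so libraries are grouped here by title prefix, PV or C. There were 55 PV-titled libraries, 28 from females and 27 from males, and 58 C-titled libraries, 29 from each sex, with 8 to 10 libraries for each prefix and time. The labels do not say that each library came from a separate animal, so p-values measure the spread between these libraries, which may be partly technical.

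Most long noncoding RNAs are not translated. Malat1 gathers in nuclear speckles, the stores of splicing factors, and Neat1 is the scaffold of paraspeckles, bodies that hold RNA-binding proteins and edited transcripts. Meg3, Rian and Mirg are made from the maternal copy of 1 imprinted region and carry small nucleolar RNAs and microRNAs, and Kcnq1ot1 silences its neighbours on the paternal chromosome. Snhg11 and Gas5 carry small nucleolar RNAs in their introns, and spliced Gas5 is known to reach ribosomes and to be removed by nonsense-mediated decay. No nuclear fraction was measured here, so the nuclear location of these RNAs is background and not a result.

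Malat1 and the long Neat1 isoform are known to end without a usual poly(A) tail, near A-rich stretches that the genome encodes, so these stretches are shown beside an end with a polyadenylation signal. In GENCODE M21 (mouse build GRCm38) Malat1 lies at chr19:5795690-5802672 on the minus strand as 1 exon of 6983 bases, and Neat1 lies near it at chr19:5824708-5845478 on the same strand. The longest A run of Malat1 spans bases 6674 to 6685 of the transcript and is given here in capitals, at chr19:5795980-5796039. The short Neat1 isoform ends with the polyadenylation signal AATAAA (capitals, chr19:5842307-5842366), whereas the long isoform of 20771 bases ends in a genome-encoded A-rich stretch (capitals, chr19:5824708-5824767). All 3 stretches are on the minus strand.
Malat1 A run: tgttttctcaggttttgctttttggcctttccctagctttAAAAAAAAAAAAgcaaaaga
Neat1 short isoform end: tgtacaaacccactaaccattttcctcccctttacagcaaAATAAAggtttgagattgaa
Neat1 long isoform end: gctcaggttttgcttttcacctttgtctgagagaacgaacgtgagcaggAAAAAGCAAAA

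Genome-encoded A runs were also present in other members. Kcnq1ot1, a transcript of 93092 bases with no intron (chr7:143203458-143296549, minus strand), holds a run of 41 A in its interior, and Meg3 and Rian hold runs of 16 and 15. The longest run was 4 bases in Miat, 5 in Gas5 and 5 in Mirg.

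The RefSeq promoter table (GRCm38.p6, 250 bases before to 50 after a start) held 10 promoters for 8 of the members. The cyclic AMP response element TGACGTCA, searched on both strands, was present in 2 of them, 1 of Meg3 and 1 of Gas5, and in 1.79% of all 32851 promoters of that length. Both promoters are shown with the element in capitals, 57 bases before the start in Meg3 and 46 in Gas5. The E-box CACGTG, the letters bound by the clock proteins CLOCK and BMAL1, was in none of the 10 and in 7.15% of all promoters. A match, or the lack of one in these windows, is only a description of the letters. The Meg3 window is chr12:109540746-109541045 and the Gas5 window is chr1:161034916-161035215, both on the plus strand.
Meg3 promoter: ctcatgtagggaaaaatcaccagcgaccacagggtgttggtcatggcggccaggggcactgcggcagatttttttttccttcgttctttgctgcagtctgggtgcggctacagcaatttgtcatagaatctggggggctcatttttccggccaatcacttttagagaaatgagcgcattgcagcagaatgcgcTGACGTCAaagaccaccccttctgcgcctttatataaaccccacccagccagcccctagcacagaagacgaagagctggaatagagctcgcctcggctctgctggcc
Gas5 promoter: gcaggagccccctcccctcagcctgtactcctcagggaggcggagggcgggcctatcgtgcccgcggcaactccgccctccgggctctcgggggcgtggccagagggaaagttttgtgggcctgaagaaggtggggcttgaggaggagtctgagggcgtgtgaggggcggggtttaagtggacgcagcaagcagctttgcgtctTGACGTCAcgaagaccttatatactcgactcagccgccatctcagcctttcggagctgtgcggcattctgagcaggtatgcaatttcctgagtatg

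Counts on genes ranged from 19.1 to 39.5 M in PV-titled and from 24.6 to 44.1 M in C-titled libraries. The share of counts that the authors' counting assigned to no gene had a median of 61.2% (55.5 to 67.7) in PV-titled and of 52.8% (51.9 to 59.4) in C-titled libraries. Of all libraries 8 correlated poorly with the rest of their own prefix: 3 PV-titled, at ZT10, ZT14 and ZT22, and 5 C-titled, at ZT2 and ZT6. They are called the libraries that stand apart, and results that rest on them are given with and without them. By edgeR all 8 markers of PV interneurons were higher in PV-titled libraries and all 8 of pyramidal neurons lower, at an adjusted p under 0.05. In edgeR's test for at least 2-fold 7 of the PV and 4 of the pyramidal markers passed. Pyramidal markers were still present in PV-titled libraries. Their summed level there had a median of 2264 CPM (counts scaled to a common library total), against 451 CPM for the PV markers. In C-titled libraries these medians were 5918 and 103 CPM. The share of each cell type was not measured.

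All 10 RNAs had higher levels in the PV-titled libraries, 9 of them by at least 2-fold. Levels are CPM, counts scaled to a common library total after TMM scaling, and log2 differences with their SE come from edgeR's quasi-likelihood fit with time, sex and library-number range as further terms. At an adjusted p under 0.05, 44.3% of the 13053 genes tested were higher in PV-titled libraries and 43.2% lower. In edgeR's glmTreat test 18% were higher by at least 2-fold, and 22.5% differed by at least 2-fold in either direction. The median log2 difference was 2.71 over the 10 RNAs, with a range from 0.99 to 3.02, against 0.01 over all genes tested. DESeq2 also called all 10 higher, and leaving out the libraries that stand apart gave 10 and 9 again. Within the first library-number range the differences ran from 0.97 (Pvt1) to 2.79 (Malat1), and within the second from 1.02 (Pvt1) to 3.24 (Snhg11). Without TMM scaling the median of all genes moved to 0.21, and every member was still called higher. Fewer cells of a type and less RNA per cell cannot be told apart in such pull-downs.

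**Figure D1:**
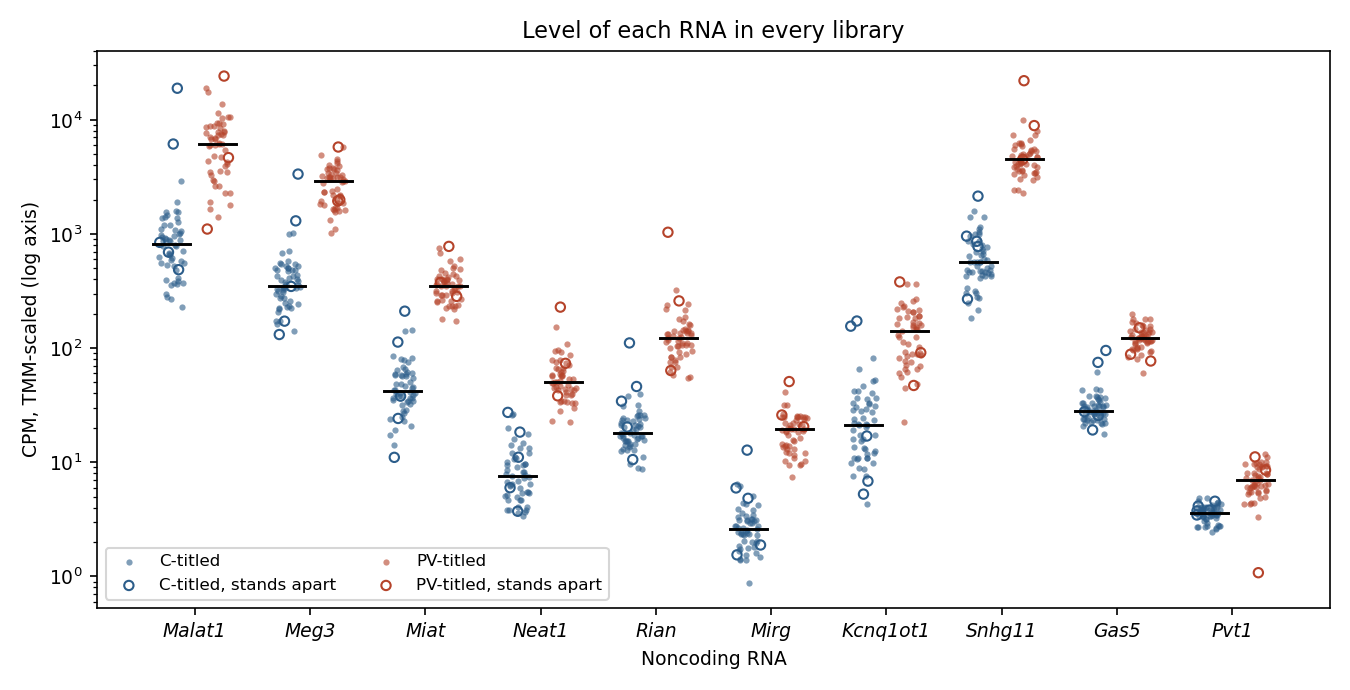
CPM (log axis) of each RNA in every library, with C-titled libraries in blue, PV-titled in red, libraries that stand apart as open circles and medians as black lines. The medians of Malat1 are 819 and 6173 CPM, and Pvt1 has the smallest gap, 3.58 against 6.95 CPM.

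Malat1 ranged from 1104 to 24156.5 CPM in PV-titled libraries, with a median of 6173, and from 228.4 to 18898 CPM in C-titled libraries, with a median of 819. Every PV-titled library lay above the C-titled median, but the groups overlapped: 14 of 58 C-titled libraries lay above the lowest PV-titled one. The 2 highest C-titled values came from libraries that stand apart, and without these libraries the C-titled maximum was 2934 CPM. The lowest PV-titled library stands apart as well, and without such libraries the PV-titled minimum was 1398 CPM. The log2 difference was 2.61 (SE 0.19), a 6.12-fold higher level (edgeR adjusted p = 6.36e-26).

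Neat1 ranged from 22.4 to 228.5 CPM in PV-titled libraries, with a median of 50.8, and from 3.39 to 27.3 CPM in C-titled libraries, with a median of 7.50. The groups overlapped narrowly: 3 C-titled libraries lay above the lowest PV-titled one, and 53 of 55 PV-titled libraries above the highest C-titled one. The fitted difference was 2.76 on the log2 scale (SE 0.13), 6.78-fold, with an edgeR adjusted p = 1.01e-38.

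Miat, which forms nuclear foci of its own in neurons, ranged from 172.8 to 778 CPM (median 353) in PV-titled libraries and from 11.03 to 210 CPM (median 41.9) in C-titled libraries. A single C-titled library, which stands apart, overlapped with the PV-titled range. Reads of Gm26953, which shares 2260 exon bases with Miat on the opposite strand, cannot be told apart from Miat where strand is not used. The difference between prefixes was a log2 of 2.91 (SE 0.13), 7.50-fold, with an edgeR adjusted p = 2.18e-42.

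Among genes for proteins of these nuclear bodies, those of paraspeckles were mixed in direction and those of nuclear speckles were mostly higher. Of 12 paraspeckle protein genes 5 were higher and 7 lower in PV-titled libraries by edgeR, with a median log2 difference of -0.51. Smarca4, a chromatin remodeller, was higher by 1.80 (SE 0.07), whereas the RNA-binding genes Hnrnpk and Nono fell by 1.01 and 0.83 (SE 0.03 and 0.04). Of 12 nuclear speckle genes 10 were higher and none lower, with a median of 1.08, among them the splicing factor genes Srrm1 at 1.71 (SE 0.06), Srsf5 at 1.60 (SE 0.06), Pnn at 1.53 (SE 0.06) and Son at 1.31 (SE 0.05).

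Meg3, which lies at chr12:109541001-109571726 on the plus strand, ranged from 1009 to 5781 CPM (median 2917) in PV-titled libraries and from 131 to 3345 CPM (median 352) in C-titled libraries. The highest 2 C-titled values, from libraries that stand apart, reached into the PV-titled range, and without those libraries the highest C-titled value was 1008.8 CPM and the lowest PV-titled one 1009.3 CPM. The log2 difference was 2.69 (SE 0.14), 6.44-fold, with an edgeR adjusted p = 1.05e-35.

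The other RNAs of the same region had like differences. Rian (chr12:109603940-109661716), the host of a row of small nucleolar RNAs, ranged from 54.5 to 1034 CPM (median 123) in PV-titled and from 8.72 to 111 CPM (median 17.9) in C-titled libraries. Its log2 difference was 2.72 (SE 0.15), with an edgeR adjusted p = 1.33e-34. Mirg (chr12:109729764-109749460), which contains microRNA precursors, ranged from 7.43 to 50.9 CPM (median 19.4) against 0.88 to 12.8 CPM (median 2.61). For each of them 1 C-titled library, which stands apart, lay above the lowest PV-titled one. The log2 difference of Mirg was 2.73 (SE 0.12), with an edgeR adjusted p = 9.36e-42.

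Kcnq1ot1 ranged from 22.4 to 380 CPM (median 142.3) in PV-titled and from 4.32 to 172.5 CPM (median 21.2) in C-titled libraries. It overlapped more than any other RNA but Pvt1, since 25 of 58 C-titled libraries lay above the lowest PV-titled one. Its log2 difference was 2.39 (SE 0.19), 5.23-fold, with an edgeR adjusted p = 3.06e-22. Kcnq1, the gene it runs antisense to, was not analysed here.

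Imprinted protein-coding genes were mixed in direction. Of 16 tested 6 were higher and 7 lower in PV-titled libraries by edgeR, with a median log2 difference of -0.23. Rtl1, a retrotransposon-derived gene of the same imprinted region as Meg3, Rian and Mirg, had the largest difference of the list, higher by 2.93 (SE 0.22, edgeR adjusted p = 1.59e-24). Dio3, also of that region, went the other way, with a log2 difference of -1.23 (SE 0.19, edgeR adjusted p = 5.84e-09). Both were chosen after their values were seen. The zinc finger gene Peg3 was higher by 1.43 (SE 0.06), whereas Ndn, the necdin gene, had a log2 difference of -1.30 (SE 0.05), and the cell cycle inhibitor gene Cdkn1c fell by 1.14 (SE 0.07) and Snrpn, which encodes a splicing protein, by 0.58 (SE 0.04).

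Snhg11 (chr2:158375638-158386145) had the largest difference of the 10. It ranged from 2293 to 22006 CPM (median 4492) in PV-titled and from 184.2 to 2143 CPM (median 567) in C-titled libraries. It was the only member with no overlap between the groups, a pattern found in 2.41% of all genes tested. The log2 difference was 3.02 (SE 0.12), 8.10-fold (edgeR adjusted p = 2.05e-46), and 124 genes had a higher one. Without the libraries that stand apart, 5 members had no overlap (Meg3, Miat, Rian, Mirg and Snhg11), against 4.77% of all genes.

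Gas5 (chr1:161034422-161038539) ranged from 60.7 to 196.9 CPM (median 123) in PV-titled and from 17.6 to 95.3 CPM (median 28.0) in C-titled libraries. Overlap was slight: 3 C-titled libraries lay above the lowest PV-titled one. The log2 difference was 1.998 (SE 0.07), with an edgeR adjusted p = 1.20e-49. Of 17 further small nucleolar RNA hosts and related noncoding RNAs 11 were tested, and all 11 were higher by at least 2-fold, with a median of 1.97. Snhg20 reached 3.11 (SE 0.09), Snhg5 2.61 (SE 0.09), Snhg3 2.41 (SE 0.08) and Snhg15 2.07 (SE 0.09).

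Pvt1 (chr15:62037986-62378096), a host of microRNAs beside the Myc gene, had the lowest level per length of the 10 in PV-titled libraries. It ranged from 1.08 to 11.9 CPM (median 6.95) there and from 2.46 to 4.86 CPM (median 3.58) in C-titled libraries. The lowest PV-titled value, from a library that stands apart, lay below all C-titled values, and 49 of 55 PV-titled libraries lay above the highest C-titled one. The log2 difference was 0.99 (SE 0.07, edgeR adjusted p = 2.81e-24), and the test for at least 2-fold was not passed (adjusted p = 1).

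The same direction was common among long noncoding genes, given here as counts only. Of 809 long noncoding genes tested 33.5% were higher by at least 2-fold in PV-titled libraries, with a median log2 difference of 0.39, against 16.02% of 11751 protein-coding genes, with a median of -0.01. Among them the sense-intronic class had 13 of 16 genes higher by at least 2-fold, and the antisense class 87 of 391. The X-linked noncoding RNAs gave 3 of 3 tested higher by at least 2-fold: Xist, which coats the inactive X chromosome, at 2.93 (SE 0.23), Tsix at 2.55 (SE 0.23) and Ftx at 2.84 (SE 0.11). Tsix runs antisense to Xist, so reads of Tsix cannot be told apart from those of Xist where strand is not used. GENCODE places Snhg11 among protein-coding genes, so it is not in the noncoding count.

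Markers of other cell types and mitochondrial RNAs moved in the same direction as the 10 RNAs. All 10 astrocyte markers were higher in PV-titled libraries, and their summed level was 1185 to 2695 CPM there and 371 to 1363 CPM in C-titled libraries. All 8 oligodendrocyte markers tested (251.9 to 808 against 139 to 359 CPM), all 10 microglia markers (201.5 to 359 against 47.4 to 110 CPM) and all 10 endothelial and mural markers (91.7 to 368 against 13.0 to 89.7 CPM) were higher as well. All 11 mitochondrially encoded genes tested were higher (1011 to 11213 against 418 to 1974 CPM). No marker was at 0 in all libraries of a prefix. The part of these RNAs in the result was not tested.

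The share of counts on no gene also moved with the result. With that share as a further term, an alternative added after the data were seen, 8 of 10 RNAs were higher by edgeR (31.5% of all genes) and 1, Snhg11, by at least 2-fold (8.51% of all genes). The log2 difference of Malat1 was then -0.03 (SE 0.20, adjusted p = 0.895) and that of Kcnq1ot1 was -0.39 (SE 0.24, adjusted p = 0.149). Meg3 had 0.70 (SE 0.18), Rian 0.54 (SE 0.17), Neat1 0.98 (SE 0.20), Mirg 1.18 (SE 0.18), Miat 1.19 (SE 0.18), Gas5 1.22 (SE 0.13) and Snhg11 1.51 (SE 0.19). Pvt1 moved least, to 0.85 (SE 0.16). The prefixes cover different ranges of the share, with 18 of 55 PV-titled libraries at or below the highest C-titled value and 2 of 58 C-titled libraries at or above the lowest PV-titled value, and the fit uses 1 slope for both prefixes.

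**Figure D2:**
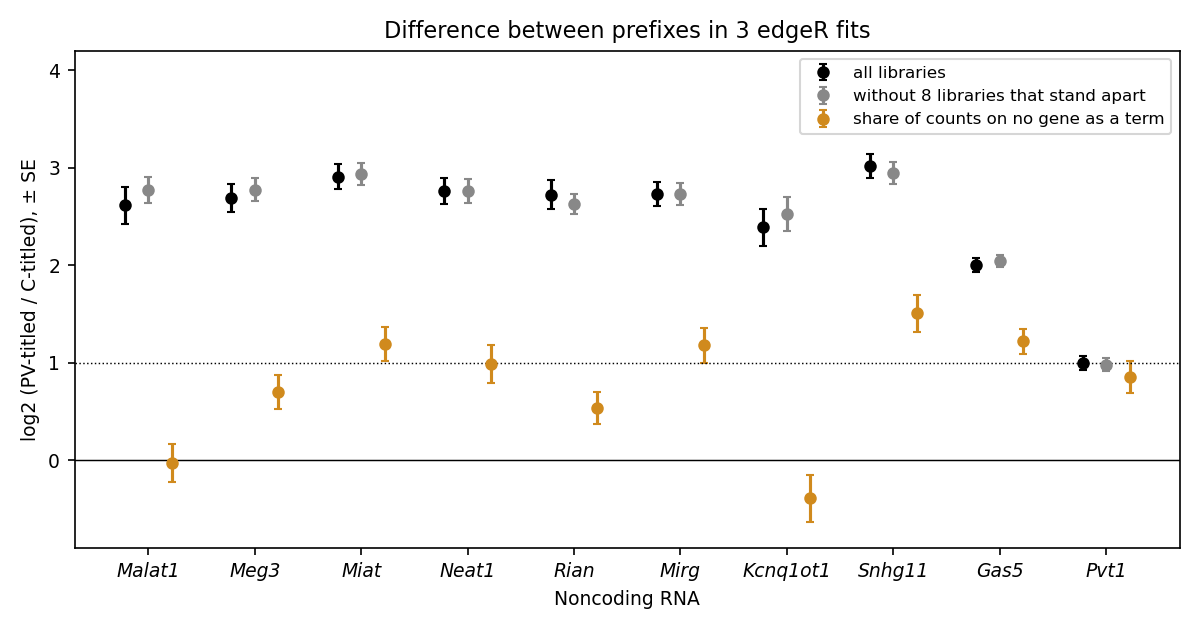
Log2 difference between PV-titled and C-titled libraries for each RNA with its SE (edgeR), for all libraries, without the libraries that stand apart, and with the share of counts on no gene as a term. The dotted line marks 2-fold; with the share as a term Malat1 and Kcnq1ot1 fall to -0.03 and -0.39, and Pvt1 stays at 0.85.

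Set per length of exon, the order of levels was similar in both prefixes. Neighbours are called within their spread where the mean log2 difference within libraries is smaller than its SD, which is no test of the order. In PV-titled libraries Malat1 had 966 ± 630 CPM per kb (SD, n = 55) and Snhg11 594 ± 328. Their mean log2 difference was 0.54 (SD 0.86), and Malat1 was the higher in 36 of 55 libraries. Meg3 (156.03 ± 60.7 CPM per kb) lay below Snhg11 and above Miat (39.8 ± 13.9) in all 55 libraries. Gas5 followed with 33.1 ± 7.64 CPM per kb. Miat lay above it in 42 of 55 libraries, with a mean log2 difference of 0.23 (SD 0.36), within their spread. The lowest were Rian (7.91 ± 7.35), Neat1 (2.84 ± 1.59), Mirg (2.68 ± 1.08), Kcnq1ot1 (1.58 ± 0.88) and Pvt1 (1.02 ± 0.31), all in CPM per kb, of which Neat1 and Mirg, and Kcnq1ot1 and Pvt1, lay within their spread.

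In C-titled libraries Malat1 had 180.8 ± 358 CPM per kb (SD, n = 58) and Snhg11 77.4 ± 42.9, again within their spread. Gas5 (8.36 ± 3.38 CPM per kb) lay above Miat (5.54 ± 3.65) in 51 of 58 libraries, the reverse of their order in PV-titled libraries. Pvt1, the last in PV-titled libraries, stood at 0.51 ± 0.08 CPM per kb, between Rian (1.18 ± 0.78) and Neat1 (0.44 ± 0.27). It lay above Neat1 in 43 of 58 libraries, with a mean log2 difference of 0.43 (SD 0.79), within their spread. Neat1 and Mirg, and Mirg and Kcnq1ot1, the lowest here, also lay within their spread. The exon length of Neat1 used here is that of its long isoform, 20.8 kb, so a level carried by the short isoform is understated per kb.

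The spread between libraries of 1 prefix was wide for most of the RNAs. After removal of time, sex and library-number range, the residual SD of log2 CPM was 0.69 for Malat1 and 0.71 for Kcnq1ot1 in PV-titled libraries, against a median of 0.35 over all genes, and 0.88 and 1.04 in C-titled libraries, against 0.26. Gas5 in PV-titled libraries (0.29) and Pvt1 in C-titled libraries (0.21) had a smaller spread than the median gene.

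Most pairs of these RNAs were positively correlated from library to library within each prefix. Of 45 pairs 37 were correlated in PV-titled libraries (n = 55) and 35 in C-titled libraries (n = 58), all positively, at an adjusted p under 0.05 of Pearson's r by a two-sided permutation test with 100000 resamples, adjusted by Benjamini and Hochberg over 110 correlations. The median r over the pairs was 0.59, with a range from -0.01 to 0.88, in PV-titled libraries, and 0.65, from -0.10 to 0.94, in C-titled libraries. Over all pairs of tested genes the median r was -0.001 and 0.004. An r at or above the lowest called one, 0.28 (PV-titled) and 0.30 (C-titled), was found in 11.9% and 20.5% of all gene pairs, a description of these libraries with no test. With residuals after time, sex and range 36 pairs were called in each prefix, and 36 and 33 once the libraries that stand apart were left out.

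Meg3 and Kcnq1ot1, imprinted RNAs from different chromosomes, had the highest r over all libraries of each prefix. It was 0.88 (rho 0.87) in PV-titled and 0.94 (rho 0.94) in C-titled libraries, each with a permutation adjusted p = 1.62e-05 for r and 1.9e-05 for rho, the smallest values that the resamples and the adjustment gave. Leaving out the 2 libraries farthest from the median of Meg3 gave r = 0.87 and 0.94. Within the first and second library-number range r was 0.90 and 0.76 in PV-titled and 0.95 and 0.94 in C-titled libraries. Meg3 and Miat had a higher r than this pair on residuals after time, sex and range, 0.93 against 0.85 in PV-titled and 0.97 against 0.94 in C-titled libraries.

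Other close pairs were Malat1 with Meg3 and Meg3 with Miat. Malat1 and Meg3 had r = 0.86 (rho 0.85) in PV-titled and r = 0.76 (rho 0.63) in C-titled libraries, with permutation adjusted p = 1.62e-05 for each r. Without the 2 farthest libraries their r was 0.87 and 0.59. Meg3 and Miat had r = 0.83 (rho 0.83) and r = 0.93 (rho 0.92), with the same permutation adjusted p, and 0.81 and 0.93 without the 2 farthest libraries. Within the ranges, Malat1 and Meg3 had r = 0.85 and 0.80 in PV-titled and 0.82 and 0.96 in C-titled libraries. Meg3 and Miat had r = 0.95 and 0.93 in PV-titled and 0.96 and 0.97 in C-titled libraries.

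Neat1 and Malat1, neighbours on chromosome 19, had a lower r than these pairs over all libraries, and a higher one within the ranges than over all libraries. Over all libraries r was 0.41 (rho 0.35, permutation adjusted p = 0.00271 for r and 0.0124 for rho) in PV-titled libraries. In C-titled libraries r was 0.39 (permutation adjusted p = 0.00289) but rho was 0.25 (adjusted p = 0.0708), and r over all libraries but the 2 farthest was 0.19. Within the first and second range r was 0.72 and 0.58 in PV-titled libraries (permutation adjusted p = 0.000135 and 0.00125) and 0.85 and 0.88 in C-titled libraries (2.89e-05 and 1.8e-05, permutation adjusted p). On residuals after time, sex and range r was 0.68 and 0.85.

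Pvt1 stood outside this group. Its 9 correlations with the other RNAs lay between -0.01 and 0.28 in PV-titled and between -0.10 and 0.12 in C-titled libraries. Only the pair with Neat1 in PV-titled libraries was called (r = 0.28, permutation adjusted p = 0.0483), with rho = 0.25 (adjusted p = 0.0785) and r = 0.18 without the 2 farthest libraries. Within the first and second range its r was 0.45 and -0.13 (permutation adjusted p = 0.0321 and 0.564). Leaving out the libraries that stand apart, it was 0.20 (permutation adjusted p = 0.193).

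**Figure D3:**
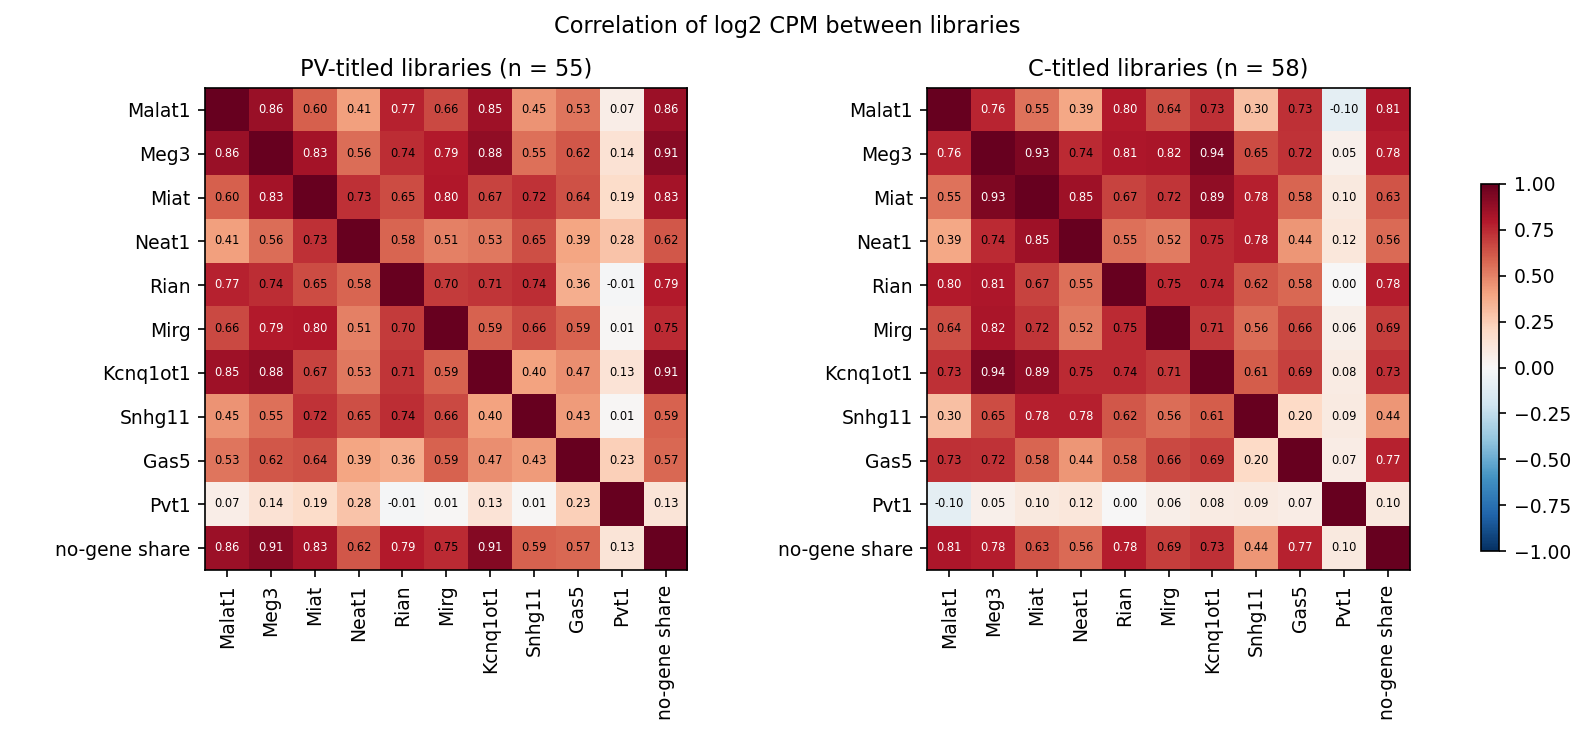
Pearson's r of log2 CPM between each pair of RNAs and between each RNA and the share of counts on no gene, within PV-titled (left, n = 55) and C-titled libraries (right, n = 58), coloured from -1 (blue) to 1 (red). The rows are red except that of Pvt1, whose r with the share is 0.13 and 0.10.

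Most of the RNAs were higher in libraries with a larger share of counts on no gene, inside each prefix. In both prefixes 9 of 10 were correlated with it, the exception being Pvt1, with a median r of 0.77 and 0.71. Over all 13053 genes the median r with the share was 0.01 (PV-titled) and 0.06 (C-titled). An r at or above the lowest called one of the RNAs, 0.57 (Gas5) and 0.44 (Snhg11), was found in 3.70% and 18.7% of all genes, again with no test. Kcnq1ot1 had r = 0.91 (rho 0.91) and Meg3 r = 0.91 (rho 0.90) in PV-titled libraries, with permutation adjusted p = 1.62e-05 each, and 0.92 and 0.90 without the 2 libraries farthest from their medians. In C-titled libraries Malat1 had r = 0.81 (rho 0.71, permutation adjusted p = 1.62e-05) and Meg3 r = 0.78 (rho 0.77, the same adjusted p), and without the 2 farthest libraries these were 0.62 and 0.66. Leaving out the libraries that stand apart, they were 0.70 and 0.86. Within the ranges Kcnq1ot1 had r = 0.93 and 0.87 in PV-titled and Malat1 r = 0.77 and 0.90 in C-titled libraries. Which reads make up that share was not tested.

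**Figure D4:**
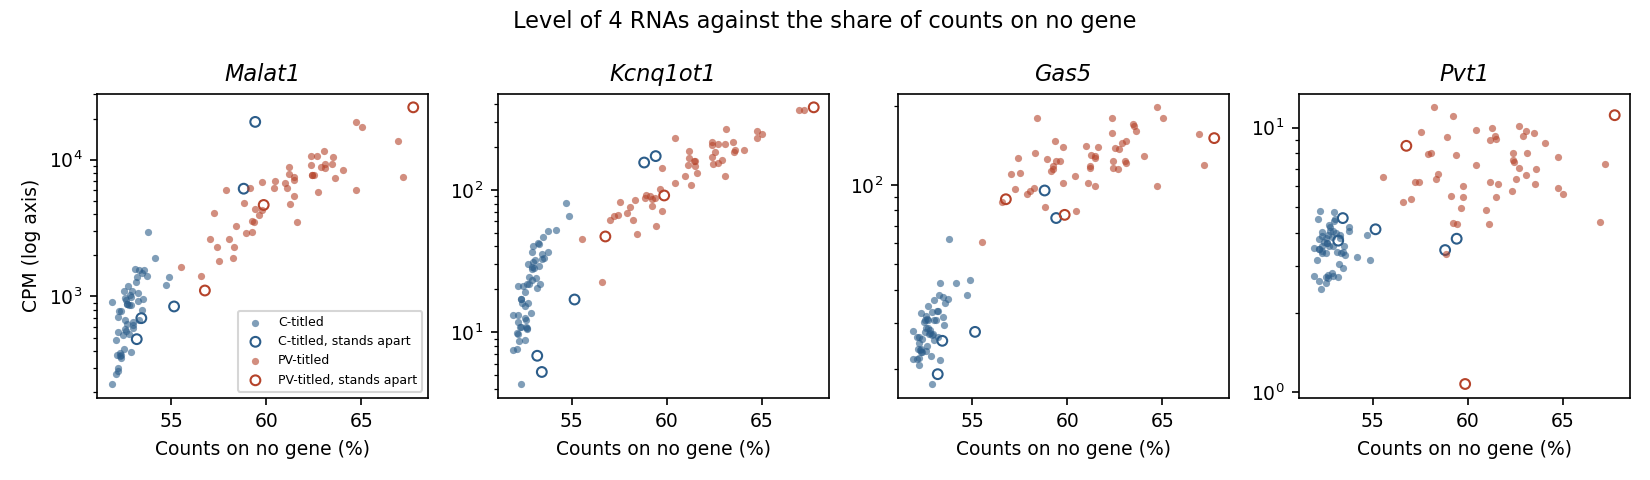
CPM (log axis) of Malat1, Kcnq1ot1, Gas5 and Pvt1 against the percentage of counts on no gene, 1 point per library, with libraries that stand apart as open circles. Malat1, Kcnq1ot1 and Gas5 are higher within each prefix where the share is larger, while r for Pvt1 is 0.13 and 0.10.

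The genes nearest to each RNA in their variation were taken as the 3 genes outside the 10 with the highest r on residuals after time, sex and range, given as a description. Of 3 genes for each of 10 RNAs, 5 were the same in both prefixes, for 4 RNAs. Malat1 had Gm37376 at 0.999 in both, a gene annotated on the opposite strand inside the Malat1 exon, whose reads cannot be told apart from Malat1 without strand. Meg3 had Gm26906 at 0.92 (PV-titled) and 0.98 (C-titled), which lies opposite the end of Meg3 and has the same limit. Miat (0.89 and 0.93) had Gm26906 too, from another chromosome, and Malat1 (0.90 and 0.92) had Gm26871. By the same limit, the r of Gm26906 with Miat cannot be told apart from that of Meg3 with Miat, 0.93 and 0.97 on residuals. This also holds where Gm26906 or Gm37376 is named below for other RNAs.

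Beyond these the nearest genes were a mix of coding and noncoding. In PV-titled libraries they were 6430590A07Rik for Malat1 (r = 0.90), Nktr, a cyclophilin gene (0.90), and R3hdm1 (0.87) for Meg3, and Fam193b (0.91) and Smpd4 (0.85) for Miat. Neat1 had 3110039I08Rik, Stag1, which encodes a cohesin subunit, and C2cd5 (0.79 to 0.78). Rian had Ptprd, 4930402H24Rik and R3hdm1 (0.92 to 0.90), and Mirg had Fam193b, Gm37899 and a gene without a symbol (0.81 to 0.80). Kcnq1ot1 had Pcdh15, Gm42772 and Gm26871 (0.88 to 0.85), and Snhg11 had 4930447C04Rik, Slc20a1 and Zfp207 (0.93 to 0.92). Gas5 had Gm17300, the fellow host Snhg3, and Pabpn1, which encodes the nuclear poly(A)-binding protein (0.81 to 0.78). Pvt1 had Enox2, Acvrl1 and Adamts17 (0.72 to 0.65), whose r was 0.46 to 0.44 without the libraries that stand apart.

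In C-titled libraries Malat1 had C030015E24Rik (r = 0.93), Meg3 had Cd46 and Mir124a-1hg (0.95 and 0.94), and Miat had Cd46 and A330023F24Rik (0.94 and 0.93). Neat1 had Mir99ahg, Gm37376 and Gm19938 (0.88 to 0.85), Rian had Akap13, Nktr and Gm37376 (0.87), and Mirg had Gm26906, Nktr and a gene without a symbol (0.84). Kcnq1ot1 had Gm42772, Gm19938 and Gm26906 (0.93 to 0.91). Snhg11 had Chuk, Gm3764 and Gm11418 (0.91 to 0.87), and Gas5 had Lamtor4, the splicing factor gene Srrm1 and Tnrc6a (0.89 to 0.87). Pvt1 had no near gene: its closest, Htr6, reached 0.46.

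No 24 h rhythm was called for any of the 10 RNAs. In PV-titled libraries edgeR called 0 of 10 at an adjusted p under 0.05, where it called 3.10% of 13047 genes, and 1 of 10 at an unadjusted p under 0.05 (17.2% of genes). The 1 was Rian, for which DESeq2 gave no p, and DESeq2 called 0 of the other 9, adjusted or not. In C-titled libraries edgeR called 0 of 10, where it called 27.0% of 13029 genes, and 0 at an unadjusted p under 0.05 (40.4% of genes; DESeq2 also 0 and 0). With time as a factor of 6 levels the adjusted counts were again 0, where 1.2% (PV-titled) and 10% (C-titled) of all genes were called. At an unadjusted p under 0.05 there were 2 RNAs (PV-titled) and 3 RNAs (C-titled). The share of all genes at that unadjusted p was not taken for this fit, so these counts cannot be read as many or few. A p above the threshold does not show that the levels were constant.

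Rian in PV-titled libraries is therefore given in full. Its lowest, median and highest CPM were 74.7, 114 and 186.9 at ZT2, 57.7, 135 and 323 at ZT6, and 54.5, 89.5 and 258.9 at ZT10. At ZT14 they were 82.9, 130 and 1034, at ZT18 61.2, 133 and 180, and at ZT22 55.7, 114 and 159.1. The libraries of all times overlapped, and the value of 1034 came from 1 library that stands apart. The fitted amplitude, the log2 distance from mean to peak, was 0.43 (SE 0.15) with a peak at ZT12.4 (edgeR adjusted p = 0.195). Leaving out the libraries that stand apart, it was 0.12, with a peak at ZT10.6 (edgeR adjusted p = 0.796).

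Malat1 in PV-titled libraries had medians of 6779, 7771, 4663, 7451, 6173 and 5404 CPM from ZT2 to ZT22. Its amplitude was 0.26 (SE 0.15, edgeR adjusted p = 0.548) with a fitted peak at ZT11.5. Without the libraries that stand apart the amplitude was 0.09 with a peak at ZT7.67. In C-titled libraries its medians were 902, 602, 794, 824, 923 and 768 CPM, with an amplitude of 0.42 (SE 0.20) and a fitted peak at ZT3.53 (edgeR adjusted p = 0.187). Its highest values there, 18898 CPM at ZT2 and 6134 CPM at ZT6, came from libraries that stand apart, and without those the amplitude was 0.14 with a peak at ZT11.7. At every time the PV-titled median was the higher, by 5.87-fold at ZT10 to 12.9-fold at ZT6.

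Meg3 had medians of 3143, 3423, 1993, 2818, 3052 and 2349 CPM from ZT2 to ZT22 in PV-titled and of 503, 307.2, 439, 326, 357 and 325 CPM in C-titled libraries. The medians of both prefixes moved in opposite directions from ZT6 to ZT10, with overlapping libraries at all times. Its amplitude was 0.07 (SE 0.10) in the PV-titled and 0.33 (SE 0.16) in the C-titled group (edgeR adjusted p = 0.92 and 0.225), and 0.13 and 0.11 without the libraries that stand apart.

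Neat1 had medians of 48.5, 62.0, 46.9, 52.3, 43.4 and 51.7 CPM in PV-titled and of 11.5, 7.80, 9.42, 8.05, 5.33 and 6.05 CPM in C-titled libraries. The C-titled libraries ranged from 3.57 to 27.3 CPM at ZT2 alone, which covers all 6 medians. Amplitudes were 0.11 (SE 0.12) and 0.16 (SE 0.13), with edgeR adjusted p = 0.859 and 0.609. Miat had amplitudes of 0.05 (SE 0.09) and 0.19 (SE 0.14), with edgeR adjusted p = 0.952 and 0.498. In C-titled libraries Rian had 0.23 (SE 0.12, edgeR adjusted p = 0.239). For the other 5 RNAs amplitudes were between 0.08 and 0.15 in PV-titled libraries and between 0.07 (Pvt1) and 0.41 (Kcnq1ot1) in C-titled libraries, with adjusted p from 0.246 to 0.923. Without the libraries that stand apart the amplitudes in C-titled libraries were 0.03 for Rian, 0.06 for Miat, 0.11 for Neat1 and 0.18 for Kcnq1ot1, and those in PV-titled libraries were 0.07 for Miat and 0.09 for Neat1.

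**Figure D5:**
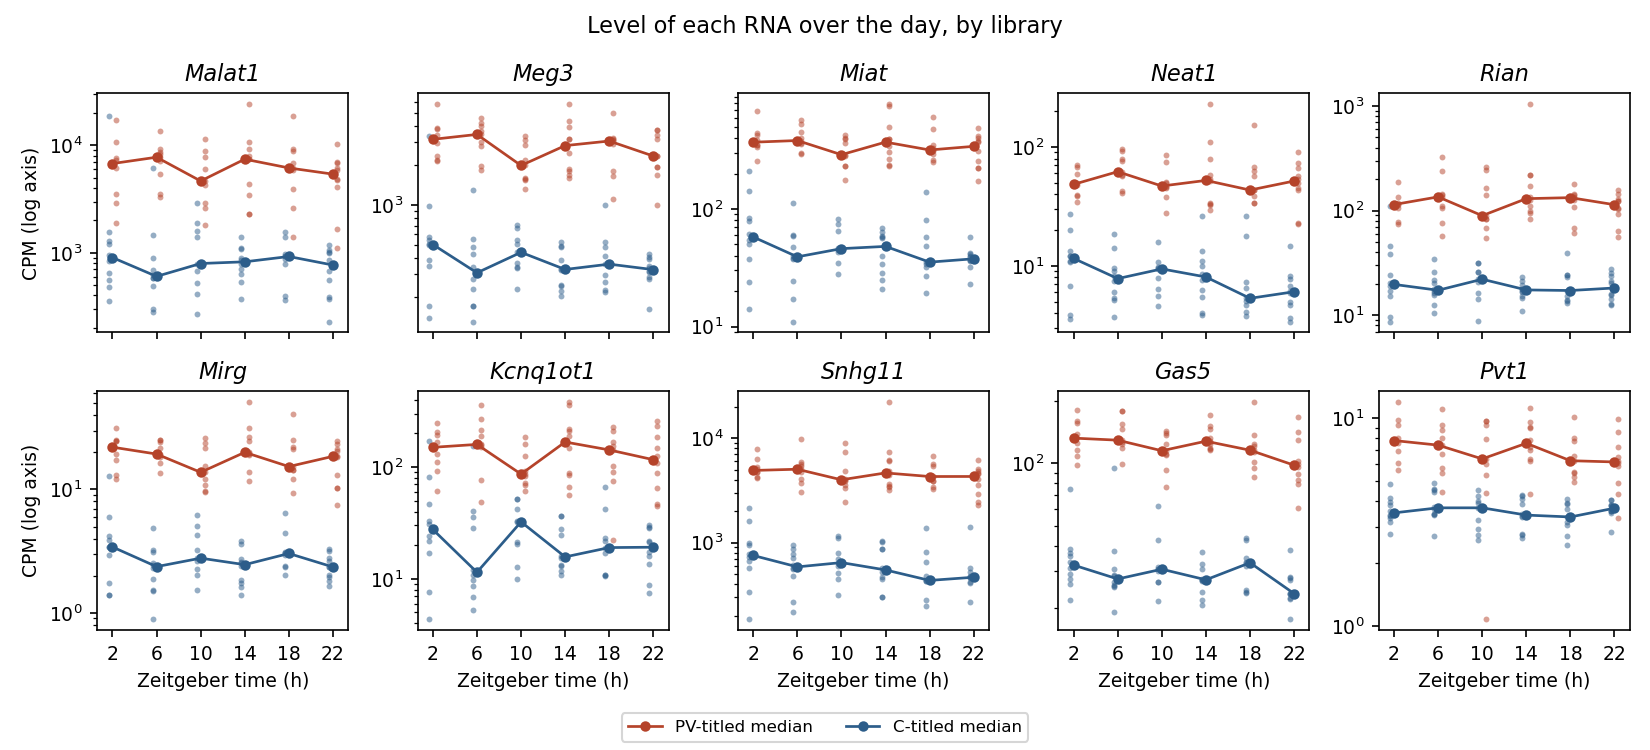
CPM (log axis) of each RNA against zeitgeber time in hours, with 1 point per library and lines through the medians of PV-titled (red) and C-titled (blue) libraries. The PV-titled medians lie above the C-titled medians at all 6 times for all 10 RNAs, by at least 1.67-fold (Pvt1 at ZT22).

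Rhythms were not called different between the prefixes either. edgeR called 0 of 10 in the test of the product of prefix with cosine and sine, where it called 1.12% of 13053 genes, and 2 of 10 at an unadjusted p under 0.05 (14.6% of genes; DESeq2 called 0 and 2). These were Rian (edgeR adjusted p = 0.098) and Malat1 (edgeR adjusted p = 0.252). When those that stand apart were left out, their edgeR adjusted p was 0.994 and 0.991.

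The levels did not differ by sex beyond the threshold. edgeR called 0 of 10 in PV-titled (0.0307% of all genes) and 0 of 10 in C-titled libraries (0.184%), with 0 and 1 at an unadjusted p under 0.05 (DESeq2, with no p for Rian in PV-titled libraries, called 0 and 0, with 0 and 1 unadjusted). The 1 was Pvt1 in C-titled libraries, with a mean of 3.77 CPM in males and 3.42 CPM in females (log2 difference of 0.13, SE 0.07, edgeR adjusted p = 0.641). The share of all genes at an unadjusted p under 0.05 was not taken for sex, so the unadjusted counts cannot be read as many or few.

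Genes that act on such RNAs were mixed between the prefixes. Of 14 nonsense-mediated decay genes 8 were higher and 5 lower in PV-titled libraries by edgeR, with a median log2 difference of 0.18. The kinase gene Smg1 was higher by 2.01 (SE 0.09) and Smg6, an endonuclease, by 0.72 (SE 0.05), whereas the exon junction genes Eif4a3 and Rbm8a fell by 0.93 and 0.57 (SE 0.03 and 0.04). Of 10 nuclear export and exon junction genes 5 were higher and 4 lower, with a median of 0.32, among the higher Thoc2 at 1.05 (SE 0.06), the export receptor gene Nxf1 at 1.03 (SE 0.05), Xpo1 at 0.78 (SE 0.05) and Thoc1 at 0.63 (SE 0.04). Among the lower, chosen after their values were seen, the export adaptor gene Alyref fell by 0.80 (SE 0.11) and the helicase gene Ddx39b by 0.31 (SE 0.05).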

How the data were processed

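RNA from ribosome pull-downs had been counted per gene, and the authors deposited 1 table of whole-number counts. FastQC, HTSeq, DESeq2 and the build GRCm38 are named in the submitters' processing notes. Aligner, annotation, strand setting and versions: not given in the sources used here. Per the labels' protocols cDNA was made with SMART-seq HT and libraries with Nextera Flex. As use of strand is not stated, reads of genes that overlap on opposite strands cannot be told apart, which touches Malat1 (Gm37376), Meg3 (Gm26906), Miat (Gm26953), Kcnq1ot1 (Kcnq1) and, as a close neighbour, Gas5 (Zbtb37). Outside the members it also touches Xist (Tsix).

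Of 114 columns 113 were used, and 1 was left out because its sex differs from that of the title it would match. The row of counts on no gene (medians of 61.2% and 52.8% of all counts) stayed out of library sizes. Symbols, lengths and positions came from GENCODE M21, which matched 13051 of 13101 identifiers. The members, gene lists and tests were chosen with earlier results of these data known. All 10 members were named, with the 3 nearest genes of each in each prefix, and up to 4 genes of a list, those with the smallest p between prefixes.

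Fits used edgeR 4.0.16 in R 4.3.3 with TMM scaling, a filter on low counts by group (filterByExpr), and quasi-likelihood tests. P-values were adjusted after Benjamini and Hochberg across all genes tested, with a threshold of 0.05. Rhythm was tested as a 24 h cosine and sine jointly. A library stands apart where its median r with its prefix, on log2 of CPM plus 1, lies over 3.5 interquartile ranges below the prefix median, a rule set with the data seen. Correlations used log2 CPM with a prior count of 2. Library numbers in the titles fall into 2 ranges, used as a term. No pair of libraries in a group agreed within sampling noise (chi-square per gene of at least 14.0). The fits were tested on simulated data. Alternatives were DESeq2 1.42.0, other scaling, filters and terms, subsets of libraries, and, added after seeing the data, the share of counts on no gene as a term.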

Additional observations from a re-analysis of the deposited data

Results flagged for a closer look

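In 11 of 120 groups of 8 to 10 libraries (1 RNA, prefix and time each) the highest or lowest library lay far from the nearest other one relative to the range of the group. Chance gives about 1 in 20 for independent groups, but these groups share libraries and most of the RNAs co-vary. The count therefore cannot be set against that rate. Of the 11, 6 came from libraries that stand apart.

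Among those 6, the male C-titled library of ZT2, replicate 4, was high for Malat1 at 18898 CPM (group median 902) and for Gas5 at 74.9 CPM (group median 32.2). The male PV-titled library of ZT14, replicate 1, was high for Rian at 1034 CPM (group median 130) and for Snhg11 at 22006 CPM (group median 4644). Gas5 was high at 95.3 CPM in the female C-titled library of ZT6, replicate 5 (group median 27.6). Pvt1 was low at 1.08 CPM in the female PV-titled library of ZT10, replicate 1 (group median 6.37).

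The other 5 came from libraries that do not stand apart. Neat1 reached 153.5 CPM in the male PV-titled library of ZT18, replicate 2 (group median 43.4), and Kcnq1ot1 was at 22.4 CPM in replicate 3 of the same sex and time (group median 142.3). At ZT22 in C-titled libraries Meg3 was low at 163.8 CPM in male replicate 3 (group median 325), Snhg11 was high at 1414 CPM in male replicate 1 (group median 467), and Pvt1 was low at 2.82 CPM in female replicate 4 (group median 3.69).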

How the results depend on the processing

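For single members, 697 alternative values were counted as the same and 2 as reversed. Most of the 697 were for rhythm or rhythm difference, where amplitudes have no direction and the same means only that a member stayed uncalled. The rest, for the difference between prefixes, kept their direction and their side of the threshold, whatever their size. The 2 reversed values, also for that difference, changed sign and were not called. With the share of counts on no gene as a term, chosen after seeing the data, Malat1 went to -0.032 and Kcnq1ot1 to -0.39 on the log2 scale. Then 1 member and 8.51% of genes were at least 2-fold higher, and the cause was not tested. No member was called for rhythm, for a rhythm difference or for sex in any alternative run that gave it a p, and DESeq2 gave none for Rian in PV-titled libraries. The percent of all genes called moved further. For rhythm in PV-titled libraries the 3.10% became 1.2% with time as a factor, 0.997% in females, 0.0613% in males, 0.153% and 0.307% in the first and second library-number range, and 0.728% to 2.61% without 1 replicate number. For rhythm in C-titled libraries the 27.0% became 10% with time as a factor, 2.07% in females, 3.63% in males, 2.9% and 10.2% in the ranges, and 15.1% to 23.9% without 1 replicate number. For the rhythm difference the 1.12% became 0.123% without the libraries that stand apart, 1.84% with DESeq2, 1.95% with no range term and 0.23% without TMM scaling. It was 0.0153% in females, 0.00766% in males, 0% and 0.0153% in the ranges, and 0.0306% to 1.18% without 1 replicate number. For sex, the 0.0307% of PV-titled libraries became 0.0153% in the first range and 0.023% to 0.0383% without 1 replicate number. The 0.184% of C-titled libraries became 0.698% without the libraries that stand apart, 0.299% with DESeq2, 0.0537% and 0.0307% in the ranges, and 0.0614% to 0.161% without 1 replicate number. Subsets hold fewer libraries.

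With the title digit as a replicate block, 10 members were higher and 9 at least 2-fold, and the rhythm difference gave 0.146% of genes. Whether the digits pair the libraries was not tested. The median correlation of deviations was 0.08 for pairs of libraries with the same digit and -0.02 for pairs with other digits. Of the pairs with the same digit 24 of 53 were over 0.1, a larger share than among pairs with other digits. Depth was 19.1 M counts or more, and the lowest levels, of Mirg and Pvt1 in C-titled libraries, rest on the fewest counts.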
